A study of Mus musculus with 6 samples.

Results

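Lymphoid homing chemokines and their receptors were followed across 6 arrays of mouse colon tissue with tumors. The genes were the ligands Cxcl12, Cxcl13, Ccl19, Ccl21a and Ccl20 and the receptors Cxcr4, Cxcr5, Ccr7 and Ccr6, and every gene probe carrying one of these 9 symbols in the scanner output was taken. This gave 12 of the 56605 gene probes on the array, 2 each for Cxcl12, Cxcr4 and Ccr7 and 1 for each other gene, of which 11 probes and all 9 genes were tested. Over the whole array 19087 genes were tested. The tissue came from C57BL/6 mice in which azoxymethane (AOM), a carcinogen, and dextran sodium sulfate (DSS), which inflames the colon, had induced colitis-associated tumors, and all 6 mice carried this model. A group of 3 mice received RG@M-γ-CD by mouth, that is regorafenib, an inhibitor of several receptor tyrosine kinases, held in a complex of mannose-modified γ-cyclodextrin, and 3 control mice received PBS by the same route. The labels name no transgene or altered allele, and the carrier without drug and the free drug had no arrays in this comparison, so the drug and its carrier cannot be told apart. Each mouse gave 1 one-color array, and the study describes the mice as independent.

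Homing chemokines are small secreted proteins that draw white blood cells to defined places. Stromal cells of B cell follicles release Cxcl13, which attracts cells bearing Cxcr5. Ccl19 and Ccl21a bring T cells and mature dendritic cells that carry Ccr7 into T cell zones and lymph vessels. Ccl20 is released by the epithelium over lymphoid follicles and by inflamed gut epithelium and acts on Ccr6, and Cxcl12 is made by many stromal cells and acts on Cxcr4. In the colon these genes are known for building isolated lymphoid follicles and other gut-associated lymphoid tissue. The arrays measured RNA from whole tissue, in which fewer cells of a type and less RNA per cell cannot be told apart.

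All levels below are log2 intensities after subtraction of the array's 75th percentile over gene probes, so that 0 means a signal at that percentile, and all differences are RG@M-γ-CD minus PBS. Levels of different probes are not comparable with each other. The share of gene probes well above background ran from 49.6% to 55.1% over the arrays, no gene spot was saturated, and Pearson's r between arrays ran from 0.939 to 0.992 across probes, which are not independent replicates. All 12 epithelial markers were well above background on all arrays of a group or more, and their summed level was between 1110 and 1650 times that of the 75th percentile, as the labelled colon tissue should have. The treated arrays differed among themselves in smooth muscle. The summed level of 7 smooth muscle markers was 196 to 227 on the PBS arrays. It was below that range on RG@M-γ-CD replicate 1, at 103, and above it on replicates 2 and 3, at 657 and 797. A clustered heat map of the study orders the arrays otherwise than the labels do. RG@M-γ-CD replicates 2 and 3 stand beside PBS replicate 1 there and the remaining arrays together, so values without these arrays and under that grouping are given beside the results they touch. All arrays came from 1 slide and 1 scan, with the 3 treated arrays and PBS replicate 1 in row 1 and PBS replicates 2 and 3 in row 2. Markers of pancreatic acinar cells, which colon should lack, were uneven as well. Prss2 (trypsin) stood at −0.28 on PBS replicate 2 and between −6.93 and −3.05 on the other arrays, and it was not well above background on the 3 treated arrays.

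Ccr7 was the one homing gene whose arrays separated by treatment. It was 2.77-fold lower in RG@M-γ-CD than in PBS on its brighter probe and 2.69-fold lower on the other, while the other 8 genes overlapped between the groups. Of the 9 genes, 8 had lower means in RG@M-γ-CD and only Cxcl12 a higher one, with a median log2 difference of −0.37 over the homing genes beside −0.01 over all genes tested. Of all genes 52.8% had a lower mean, and the difference between this share and 8 of 9 was not tested. After adjustment over all genes, limma called 0 of the 9 and 0 of 19087 genes at 0.05 (0% of all genes), the smallest adjusted p being 0.817, and the methods' t-test also called 0. The unadjusted p was below 0.05 in 419 genes by limma and in 381 by the methods' t-test. At this unadjusted threshold, limma had 1 of the 9 genes lower (1.33% of all genes were) and 0 higher (0.864% of all genes), and the methods' t-test had the same gene lower (0.98% of all genes). All 3 treated arrays lay below all 3 PBS arrays in 1 of the 9 genes (2.19% of all genes) and above them in 0 (2.38% of all genes). With 3 arrays per group the smallest two-sided p of an exact permutation test is 0.1.

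**Figure D1:**
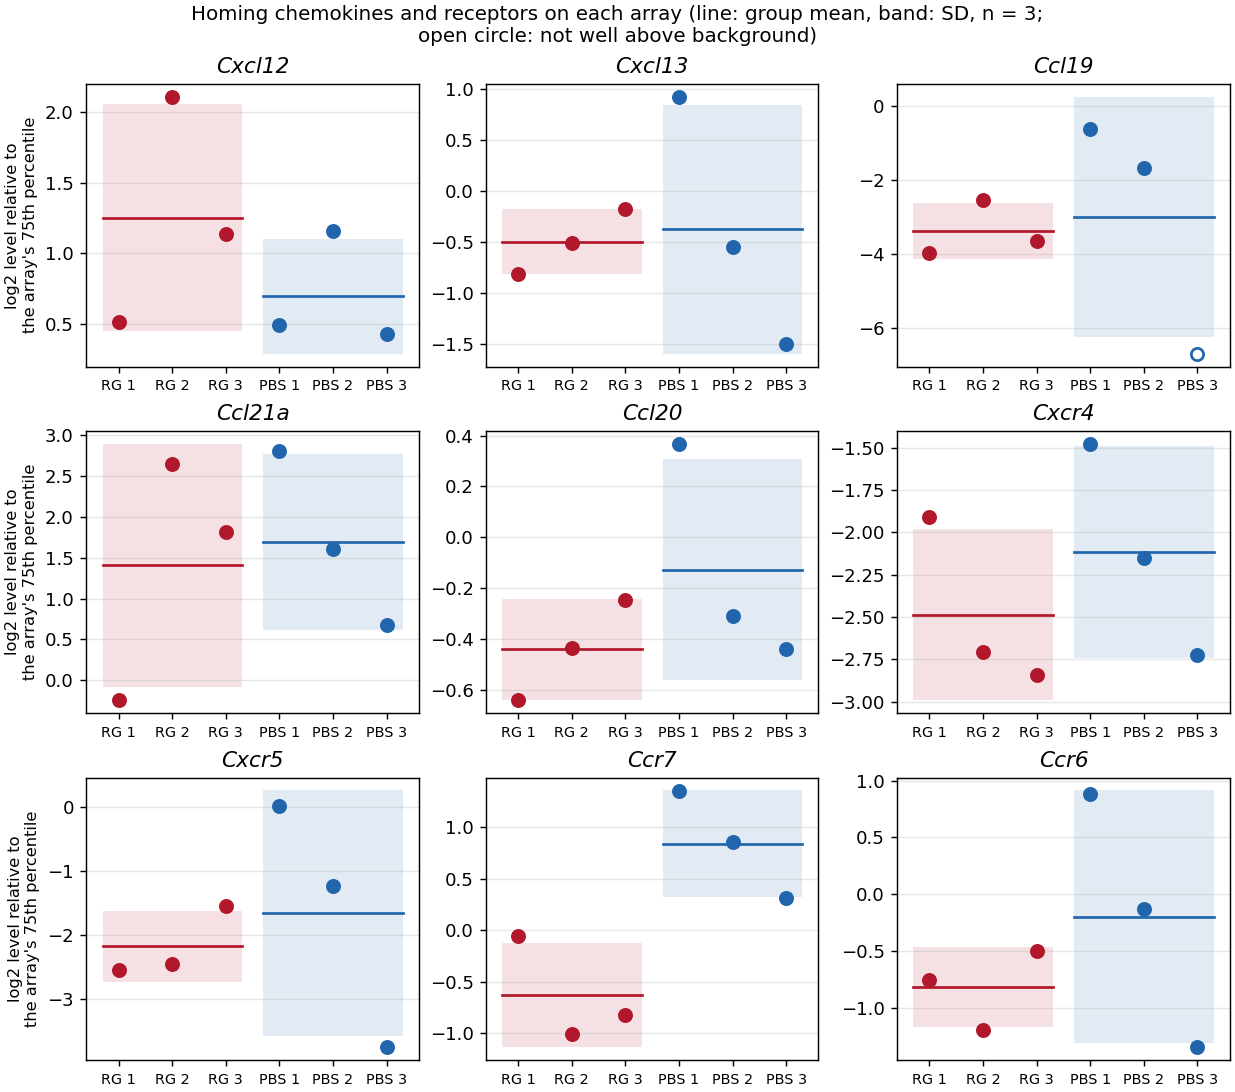
Level of each ligand (Cxcl12 to Ccl20) and receptor (Cxcr4 to Ccr6) on each array, in log2 units with the 75th percentile of that array at 0, with a separate vertical scale per gene. Lines and bands are the mean and SD of 3 arrays, red for RG@M-γ-CD (RG) and blue for PBS, and an open circle marks a level not well above background. The groups separate in the Ccr7 panel and overlap in the other 8.

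Among the ligands, Cxcl13 showed a wide spread in the PBS group and a narrow one in the treated group. Its levels were −0.81, −0.51 and −0.18 on RG@M-γ-CD replicates 1, 2 and 3 and 0.92, −0.55 and −1.50 on PBS replicates 1, 2 and 3. PBS replicate 1 was the highest array and PBS replicate 3 the lowest, with the treated arrays between them. The log2 difference was −0.12 (95% interval −1.54 to 1.29, adjusted p = 1 in limma). The adjusted limma p of the other 8 genes was 1 as well.

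Ccl19 had the widest spread of the 9 genes. It was at −3.98, −2.54 and −3.66 on the RG@M-γ-CD arrays and at −0.63, −1.68 and −6.70 on the PBS arrays. The last value, on PBS replicate 3, was not well above background, so that Ccl19 was measured on 5 of the 6 arrays. The lowest signal of any probe well above background on that array, −4.53, was taken as a limit in its place, which is a stand-in and not a strict bound. PBS replicate 1 was 14.9-fold above this limit and 10.2-fold above the lowest treated array. The log2 difference of Ccl19 was −0.39 (95% interval −4.05 to 3.27). It became −1.11 with PBS replicate 3 raised to that limit and −2.24 without that array. Without PBS replicate 1 it was 0.80 with the measured signal of PBS replicate 3 and −0.29 with the limit, so the sign there is not settled.

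Ccl21a, the other Ccr7 ligand, is made by lymphatic endothelium and T zone stroma, and the accessions of its probe also name the near-identical genes Gm10591, Gm13304 and Gm1987, so the probe cannot assign its signal among them. Its levels were −0.25, 2.65 and 1.81 on the RG@M-γ-CD arrays and 2.81, 1.60 and 0.67 on the PBS arrays. RG@M-γ-CD replicate 1 was the lowest array by 0.92, and the other treated arrays lay within the range of the PBS arrays. Between the groups Ccl21a differed by −0.29 (95% interval −2.33 to 1.75), and this turned to 0.54 without RG@M-γ-CD replicate 1 and to 0.27 without PBS replicate 1.

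Ccl20 was at −0.64, −0.43 and −0.25 on the RG@M-γ-CD arrays and at 0.37, −0.31 and −0.44 on the PBS arrays. Only PBS replicate 1 was above all treated arrays, and the whole range over 6 arrays was 2.01-fold. For Ccl20 the log2 difference was −0.31 (95% interval −0.93 to 0.30), an interval that reaches from 0.526 to 1.23 times the PBS level, and it was −0.07 without PBS replicate 1.

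Cxcl12 was the only one of the 9 with a higher mean in the treated group. Its brighter probe (A_51_P172502) read 0.51, 2.11 and 1.14 on the RG@M-γ-CD arrays and 0.49, 1.16 and 0.43 on the PBS arrays. RG@M-γ-CD replicate 2 was the highest array, and RG@M-γ-CD replicate 1 lay among the PBS arrays. Its log2 difference was 0.56 (95% interval −0.48 to 1.59). The second probe (A_55_P1966204) read −1.65, 0.79 and 0.04 against −0.44, −0.27 and −0.83, a log2 difference of 0.24 (95% interval −1.20 to 1.68), and it put RG@M-γ-CD replicate 1 lowest of all arrays. Without RG@M-γ-CD replicate 2 the brighter probe gave 0.13, and without RG@M-γ-CD replicate 1 it gave 0.93 (adjusted p = 0.390 in limma). In the latter fit Cxcl12 was the 1 homing gene higher at an unadjusted p below 0.05, where 7.05% of all genes were.

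Of the receptors, Ccr7 guides T cells and mature dendritic cells toward Ccl19 and Ccl21. The gene lies on chromosome 11 (chr11:99144199-99155077, GRCm38.p6). Its brighter probe (A_55_P2023542) read −0.06, −1.01 and −0.82 on the RG@M-γ-CD arrays and 1.35, 0.85 and 0.31 on the PBS arrays. The highest treated array, replicate 1, was thus below the lowest PBS array, replicate 3. Ccr7 thus had a log2 difference of −1.47 (95% interval −2.32 to −0.61, adjusted p = 1 in limma), with means of −0.63 ± 0.50 and 0.84 ± 0.52 (SD, n = 3 each), and Ccr7 was number 37 of all genes by p. The second probe (A_51_P420229) read −3.18, −4.00 and −3.77 against −1.71, −2.09 and −2.87, and it placed the arrays in the same order. Its log2 difference was −1.43 (95% interval −2.29 to −0.57, adjusted p = 1 over all probes in limma).

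The lower Ccr7 level did not rest on 1 array. Leaving out each array in turn gave log2 differences of Ccr7 between −1.75 and −1.21, each with an unadjusted p below 0.05 in limma. Other settings changed the normalization, the filter, the probe summary, the outlier spots or the test, or added a replicate block, the limit for dim genes or the slide row. With the one reported these made 19 settings, and Ccr7 was lower in all 19. Some could not move Ccr7, since the limit and a balanced block leave its difference as it was. Both slide row fits gave −1.98, against PBS replicate 1 alone, the highest array for Ccr7. The adjusted p was below 0.05 in 0 of the 19 settings, and its lowest value was 0.0787, without RG@M-γ-CD replicate 1. In that fit 206 genes passed the adjusted threshold and 5.43% of all genes were lower at an unadjusted p below 0.05, so that the low p of Ccr7 there was shared by many genes. Without PBS replicate 1 the difference was −1.21, and Ccr7 was again the 1 homing gene lower at this threshold (1.6% of all genes). With RG@M-γ-CD replicates 2 and 3 and PBS replicate 1 set against the other 3 arrays, as the heat map orders them, the log2 difference of Ccr7 was −0.53, given as a description with no test.

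**Figure D2:**
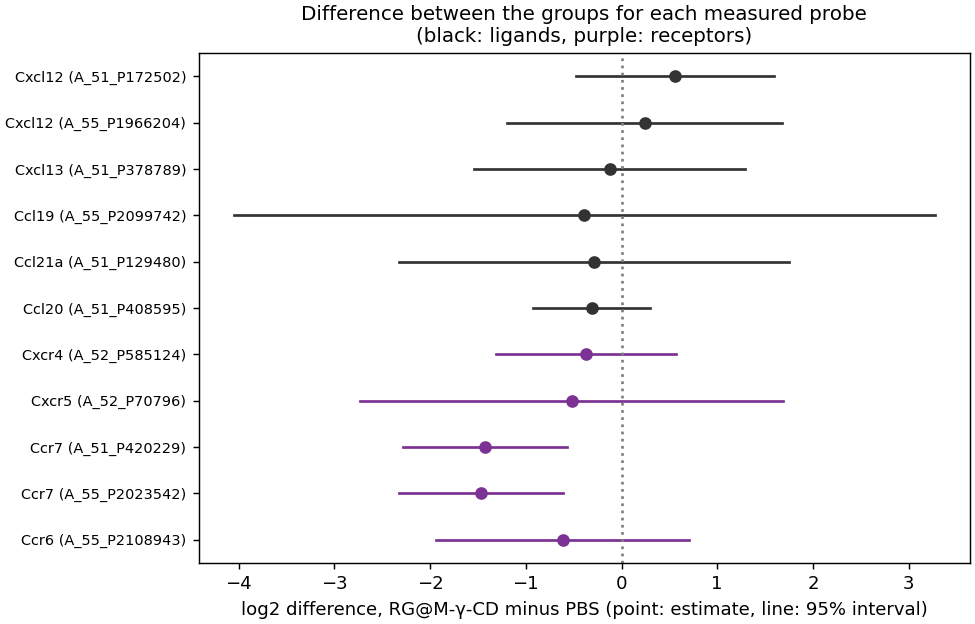
Log2 difference between RG@M-γ-CD and PBS for the 11 probes that were tested, with its 95% interval from limma (n = 3 arrays per group). Black marks ligands and purple receptors, and the intervals of the 2 Ccr7 probes are the ones that do not reach 0.

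Cxcr5, which marks follicular B cells and follicular helper T cells, was at −2.54, −2.45 and −1.54 on the RG@M-γ-CD arrays and at 0.02, −1.22 and −3.75 on the PBS arrays. As for Cxcl13, PBS replicate 1 was highest and PBS replicate 3 lowest. The range over the 6 arrays was 13.6-fold, wider than in 99.2% of the genes tested. Cxcr5 differed between the groups by −0.52 (95% interval −2.73 to 1.69), by −1.57 without PBS replicate 3 and by 0.31 without PBS replicate 1.

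Ccr6, the Ccl20 receptor on B cells, interleukin-17-producing T cells and innate lymphoid cells, was at −0.75, −1.19 and −0.50 on the RG@M-γ-CD arrays and at 0.88, −0.13 and −1.35 on the PBS arrays. The PBS arrays again held both the highest and the lowest value. For Ccr6 the log2 difference was −0.62 (95% interval −1.93 to 0.70), −1.19 without PBS replicate 3 and −0.08 without PBS replicate 1.

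Cxcr4, found on most white blood cells, had 2 probes. The brighter one (A_52_P585124) read −1.91, −2.71 and −2.84 on the RG@M-γ-CD arrays and −1.48, −2.15 and −2.72 on the PBS arrays, a log2 difference of −0.37 (95% interval −1.30 to 0.56), which was −0.05 without PBS replicate 1 and −0.67 without PBS replicate 3. The other probe (A_55_P2745744) was well above background on 1 array only, PBS replicate 1, and was not tested. PBS replicate 1 was also the highest array on the brighter probe.

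Single PBS arrays moved the differences of most homing genes. PBS replicate 1 was the highest of the 6 arrays for 8 of the 9 genes, and PBS replicate 3 the lowest for 5 of them. Without PBS replicate 3, 4 of the 9 genes (Ccl19, Ccr6, Ccr7 and Cxcr5) were lower in RG@M-γ-CD at an unadjusted p below 0.05, where 1.22% of all genes were, and the median log2 difference was −0.80. Without PBS replicate 1 the median was 0.27 with 4 of the 9 genes lower in mean, but −0.05 with 5 lower once Ccl19 on PBS replicate 3 was set to its limit. Row 2 of the slide held PBS arrays only, so the fit with slide row as a covariate and the fit to row 1 alone both compared the 3 treated arrays with PBS replicate 1, and the median log2 difference was −1.42 in both. This is the difference from 1 array, the highest for 8 of the 9 genes, and the PBS arrays spread more widely than the treated ones for Cxcl13, Cxcr5, Ccr6 and Ccl19. None of these fits gave one of the 9 genes an adjusted p below 0.05.

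In the order of that heat map, with RG@M-γ-CD replicates 2 and 3 and PBS replicate 1 set against the rest, the differences of the ligands were all positive, at 1.75 for Ccl21a, 1.03 for Cxcl13, 0.55 for Cxcl12, 0.36 for Ccl20 and, with the limit for PBS replicate 3, 1.12 for Ccl19. Those of the receptors were 1.18 for Cxcr5, 0.47 for Ccr6, −0.08 for Cxcr4 and −0.53 for Ccr7. These are descriptions with no test, since neither side of that grouping is named in the labels.

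The bases upstream of the transcription starts of Cxcl13, Ccl20 and Ccr6 are shown because they hold a match to a motif searched, and they were chosen after the matches were seen. RefSeq starts (GRCm38.p6) were listed for 7 of the 9 genes, 8 starts in all, and the 250 bases before each were searched on both strands for the NF-kappaB consensus and for TATAAA. Matches are in capitals, and the sequences run 5′ to 3′ on the strand of the gene, here the plus strand.
Cxcl13 (chr5:95956689-95956938): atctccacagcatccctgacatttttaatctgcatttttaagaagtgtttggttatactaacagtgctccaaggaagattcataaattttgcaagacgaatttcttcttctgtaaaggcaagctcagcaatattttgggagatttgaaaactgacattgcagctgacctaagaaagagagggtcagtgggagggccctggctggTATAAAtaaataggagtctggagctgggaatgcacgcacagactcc
Ccl20 (chr1:83116516-83116765): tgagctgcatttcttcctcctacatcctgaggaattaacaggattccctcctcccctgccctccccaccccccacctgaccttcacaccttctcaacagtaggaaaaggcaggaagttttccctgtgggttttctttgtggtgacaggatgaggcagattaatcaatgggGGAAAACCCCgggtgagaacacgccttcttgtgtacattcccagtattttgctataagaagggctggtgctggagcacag
Ccr6 (chr17:8242276-8242525): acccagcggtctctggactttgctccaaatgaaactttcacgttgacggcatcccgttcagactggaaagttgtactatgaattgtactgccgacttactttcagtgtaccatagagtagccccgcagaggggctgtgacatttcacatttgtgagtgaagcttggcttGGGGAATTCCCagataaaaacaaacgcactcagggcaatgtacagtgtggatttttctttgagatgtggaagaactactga
The NF-kappaB consensus was found 80 bases before the Ccl20 start and, as 2 overlapping matches, 81 and 80 bases before the second of 2 listed Ccr6 starts, which lies within the gene. It was found before no other start of the 7 genes, the first Ccr6 start included, and 7.25% of all 32851 listed upstream windows hold it. TATAAA was found 46 bases before the Cxcl13 start and also before the Cxcr4 start, beside 12.4% of all windows. A match describes letters in these windows and says nothing of binding.

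Each ligand was then set against its receptor over the 6 arrays, for 5 pairs and with exact permutation tests. Cxcl13 and Cxcr5 had Pearson's r of 0.94 (exact permutation p = 0.0167, Benjamini-Hochberg adjusted p = 0.0835 over the 5 pairs) and Spearman's rho of 0.83 (exact p = 0.0583, adjusted p = 0.258). Without PBS replicates 1 and 3, the arrays farthest from the Cxcl13 median, r was 0.56, so the relation rested largely on these arrays. Ccl20 and Ccr6 had r of 0.86 (exact permutation p = 0.0403, adjusted p = 0.101) and rho of 0.77 (exact p = 0.103, adjusted p = 0.258), with r of 0.86 after PBS replicate 1 and RG@M-γ-CD replicate 1 were left out. Such values were not particular to a ligand and its receptor. Without a test, r was 0.95 for Cxcr5 and Ccr6, 0.89 for Cxcl13 and Ccr6 and 0.87 for Cxcl13 and Ccl20. Other combinations were low, such as 0.01 for Cxcl12 and Cxcl13 and −0.64 for Cxcl12 and Ccr7.

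The Ccr7 ligands were set against the receptor in the same way. Ccl19 and Ccr7 had r of 0.35 and rho of 0.43 (exact permutation p = 0.512 and 0.419, adjusted p = 0.640 and 0.698), and Ccl21a and Ccr7 had r of 0.05 and rho of 0.09 (exact permutation p = 0.918 and 0.919, adjusted p = 0.918 and 0.919). Their r without the 2 farthest arrays was 0.48 and −0.67, and with PBS replicate 3 at its limit Ccl19 and Ccr7 had r of 0.56 (exact permutation p = 0.251). Cxcl12 and Cxcr4 had r of −0.49 and rho of −0.14 (exact permutation p = 0.333 and 0.803, adjusted p = 0.555 and 0.919), and −0.80 without RG@M-γ-CD replicate 2 and PBS replicate 3. None of the 5 pairs passed an adjusted p of 0.05.

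**Figure D3:**
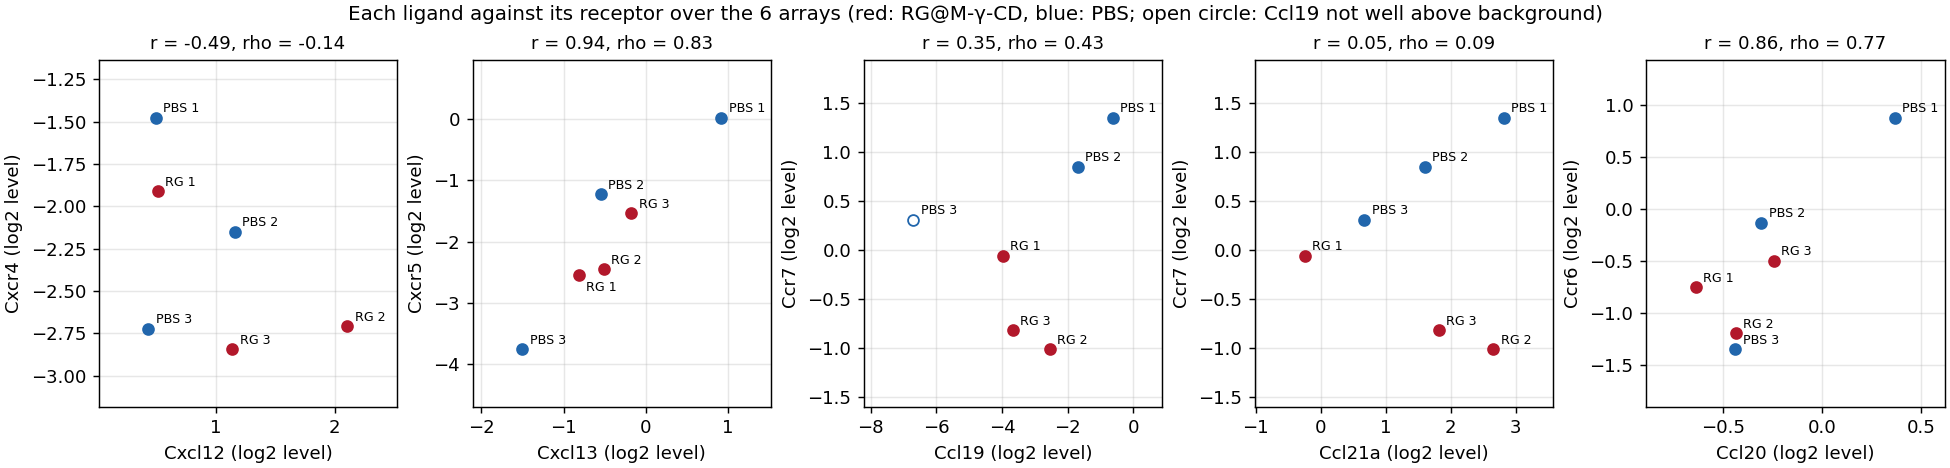
Log2 level of each receptor (vertical axis) against its ligand (horizontal axis) on the 6 arrays, red for RG@M-γ-CD and blue for PBS, with Pearson's r and Spearman's rho above each panel. In the Cxcl13 and Cxcr5 panel PBS replicates 1 and 3 are at opposite ends, and in both Ccr7 panels the PBS arrays lie above the treated ones. An open circle marks Ccl19 on PBS replicate 3, drawn at its measured signal.

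Markers of the cells that carry or make these genes are given beside them. The B cell markers that were tested, 11 of 14, all had lower means in RG@M-γ-CD, with a median log2 difference of −0.53 (52.8% of all genes had lower means), and 0 of them had an unadjusted p below 0.05. Their summed level was 3.95 to 8.08 on the treated arrays and 2.41 to 23.7 on the PBS arrays, and the median marker was at 0.59 on PBS replicate 1 and at −2.45 on PBS replicate 3, the highest and lowest arrays for Cxcl13, Cxcr5 and Ccr6 too. Ms4a1 (CD20) read −0.77, −0.43 and 0.38 on the RG@M-γ-CD arrays and 1.91, 0.85 and −2.16 on the PBS arrays. It had the order of the PBS arrays that Cxcr5 had. Cd79a, Pax5 and Blk were not well above background on all arrays of either group. The part of B cell content in these values was not tested.

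T cell markers are given beside Ccr7. Of 16 markers 14 were tested, all with lower means in RG@M-γ-CD (median −0.54), and 4 of them, Cd3g, Cd5 and Cd6 included, were lower at an unadjusted p below 0.05, where 1.33% of all genes were. Their summed level was 20.3, 8.82 and 11.4 on the RG@M-γ-CD arrays and 16.5 to 18.3 on the PBS arrays. The sum on RG@M-γ-CD replicate 1 held high levels of Lef1, at 3.05 there and 2.53 to 2.69 on the PBS arrays, and of Tcf7, at 1.57 there and 0.63 to 0.71 on the PBS arrays. The median T cell marker was at −0.79, −1.73 and −1.74 on the RG@M-γ-CD arrays and between −0.79 and −0.58 on the PBS arrays. Cd3d read −0.40, −1.35 and −1.61 on the treated arrays and −0.26, −0.42 and −0.38 on the PBS arrays, and Cd3e −0.54, −1.08 and −0.95 against −0.72, −0.25 and −0.48. Of 12 dendritic cell markers 7 were tested, all lower (median −0.68), with Flt3, the receptor of their growth factor, at −0.68 and Ccl17, a chemokine of mature dendritic cells, at −0.90, both at an unadjusted p below 0.05. The summed level of the dendritic cell markers was 11.4 to 17.8 on the treated arrays and 18.4 to 19.9 on the PBS arrays. Lamp3 made up most of this sum, and its own levels overlapped, at 3.79, 3.16 and 3.88 on the treated arrays against 3.53, 3.77 and 3.98. Of the 7 markers tested, only 2, Flt3 and Ccl17, had all treated arrays below all PBS arrays, as 2.19% of all genes did. The part of T cell and dendritic cell content in the Ccr7 difference was not tested.

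**Figure D4:**
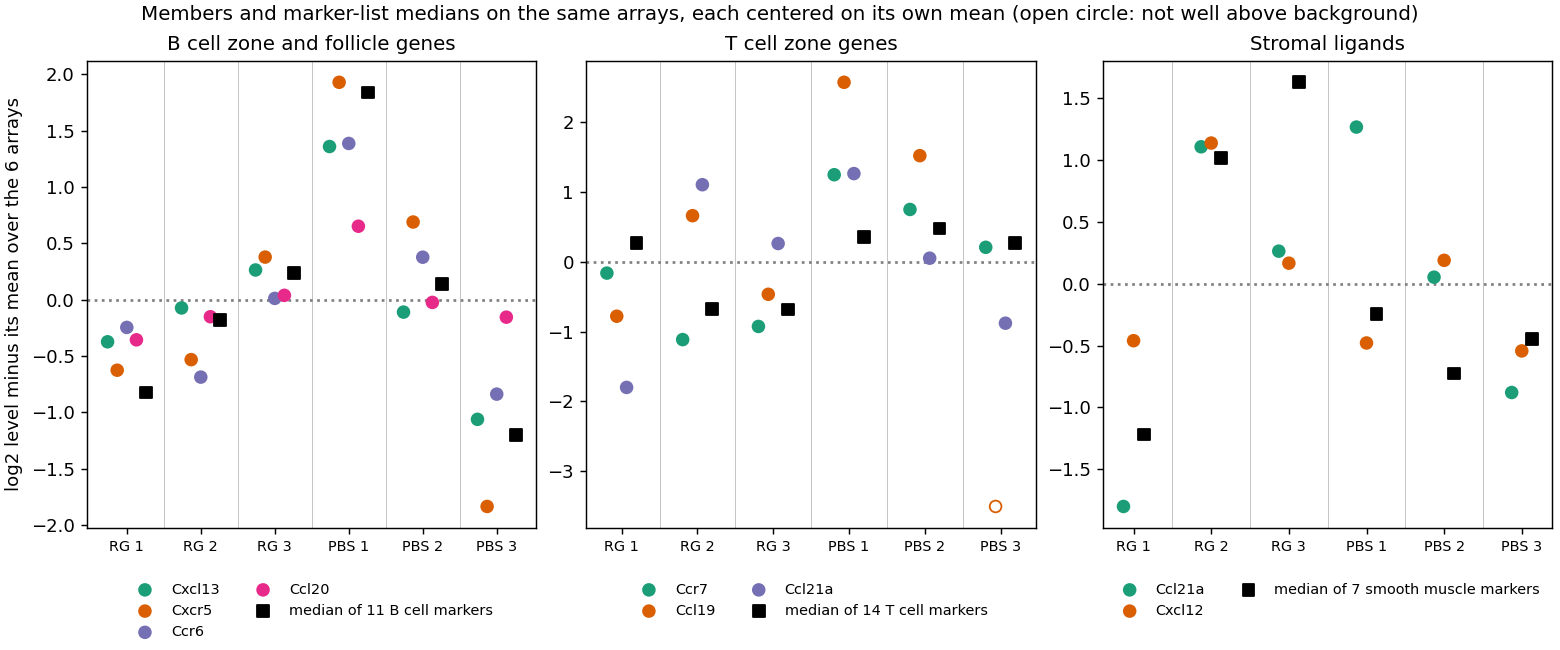
Log2 level minus its own mean over the 6 arrays for homing genes (circles) and for the median of the B cell, T cell or smooth muscle markers (squares), with an open circle where Ccl19 was not well above background. On PBS replicate 1 the B cell median is 1.84 above its mean and Cxcr5 1.93 above, and on PBS replicate 3 they are at −1.20 and −1.84.

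Stromal markers are given beside Ccl21a and Cxcl12, which stromal cells make. Of 7 smooth muscle markers all were tested and all had higher means in RG@M-γ-CD (median 0.95, 0 of 7 at an unadjusted p below 0.05). Myh11 read 1.26, 4.37 and 4.49 on the treated arrays and 2.50, 2.07 and 2.40 on the PBS arrays, and Acta2 had the same low array, RG@M-γ-CD replicate 1, at 4.60 against 5.43 to 7.33 elsewhere. That array was also the lowest for Ccl21a. The lymphatic endothelial list, which holds Ccl21a itself, had 6 of 7 genes tested, with a median log2 difference of −0.02 and a summed level of 17.0 to 26.5 against 19.7 to 28.2. Its median level was −1.17 on RG@M-γ-CD replicate 1, the lowest array, and between −0.47 and 1.28 on the others. Lyve1, Reln, Mmrn1, Pdpn and Ccl21a were each lowest on that array, while Prox1, which makes up most of the sum there, was highest there at 4.48. All 8 blood endothelial markers had higher means (median 0.34), and Tek, the angiopoietin receptor, was the 1 of them with an unadjusted p below 0.05 (log2 difference 0.72). The 9 fibroblast markers had a median of 0.02. The part of stromal content in the Ccl21a and Cxcl12 values was not tested.

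Of the remaining lists, the germinal center markers had 4 of 10 tested and all 4 lower (median −0.54), with Icos, a costimulator of follicular helper T cells, at −0.95 and an unadjusted p below 0.05. The macrophage markers had 8 of 9 tested and all 8 lower (median −0.44), with Cd14 at −0.41 and an unadjusted p below 0.05. M cell and follicle epithelium markers had 7 of 8 tested and 6 lower (median −0.47), plasma cell markers 6 of 7 and 3 lower (median 0.02), and ILC3 markers 3 of 8 and 1 lower (median 0.10). Epithelial markers had 12 of 12 tested and 5 lower (median 0.02), and pancreatic acinar markers 3 of 8 and 2 lower, Prss2 not being well above background on any treated array. No gene of these lists had an adjusted p below 0.05 in limma.

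Other genes that steer white blood cells into tissue include atypical chemokine receptors, adhesion molecules and oxysterol genes. Of 30 such genes 28 were on the array and 26 were tested, 17 with lower and 9 with higher means (median −0.15, where 52.8% of all genes had lower means), and 2 were lower at an unadjusted p below 0.05 (1.33% of all genes). These were Gpr183, the oxysterol receptor that positions B cells and dendritic cells, at −0.84, and Itgal, the α chain of the integrin LFA-1, at −0.64. The most positive were Ackr4, a scavenger of Ccl19, Ccl21 and Ccl25, at 1.07 (95% interval −0.93 to 3.07), and Klf2, a transcription factor of lymphocyte exit and of endothelium, at 0.97 (95% interval −0.25 to 2.20).

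Of 17 genes that induce lymphoid tissue, in the lymphotoxin, interleukin 7 and TNF pathways, 15 were tested, 11 with lower and 4 with higher means (median −0.20). Il7r, the interleukin 7 receptor of T cells and innate lymphoid cells, was below all PBS arrays on all treated arrays, at −0.53, −1.37 and −1.43 against −0.29, −0.40 and −0.17 (log2 difference −0.83, 95% interval −1.47 to −0.18). Tnf was at −0.81 (95% interval −2.16 to 0.54), and the most positive was Id2, a factor of lymphoid tissue inducer cells, at 0.50 (95% interval −0.22 to 1.22). Of 17 genes of signaling below chemokine receptors 16 were tested, 13 with lower and 3 with higher means (median −0.12). An unadjusted p below 0.05 was reached by 1 of them. Pik3cg, the phosphoinositide kinase driven by these receptors, was at −0.72 (95% interval −1.81 to 0.37) and Rac2, a GTPase of blood cells, at −0.67 (95% interval −1.52 to 0.18). Rgs1 and Rgs2, which shorten G protein signals, were at 0.92 (95% interval −0.36 to 2.21) and 0.39 (95% interval −0.17 to 0.95). No gene of these 3 lists passed 0.05 after adjustment over all genes in limma.

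**Figure D5:**
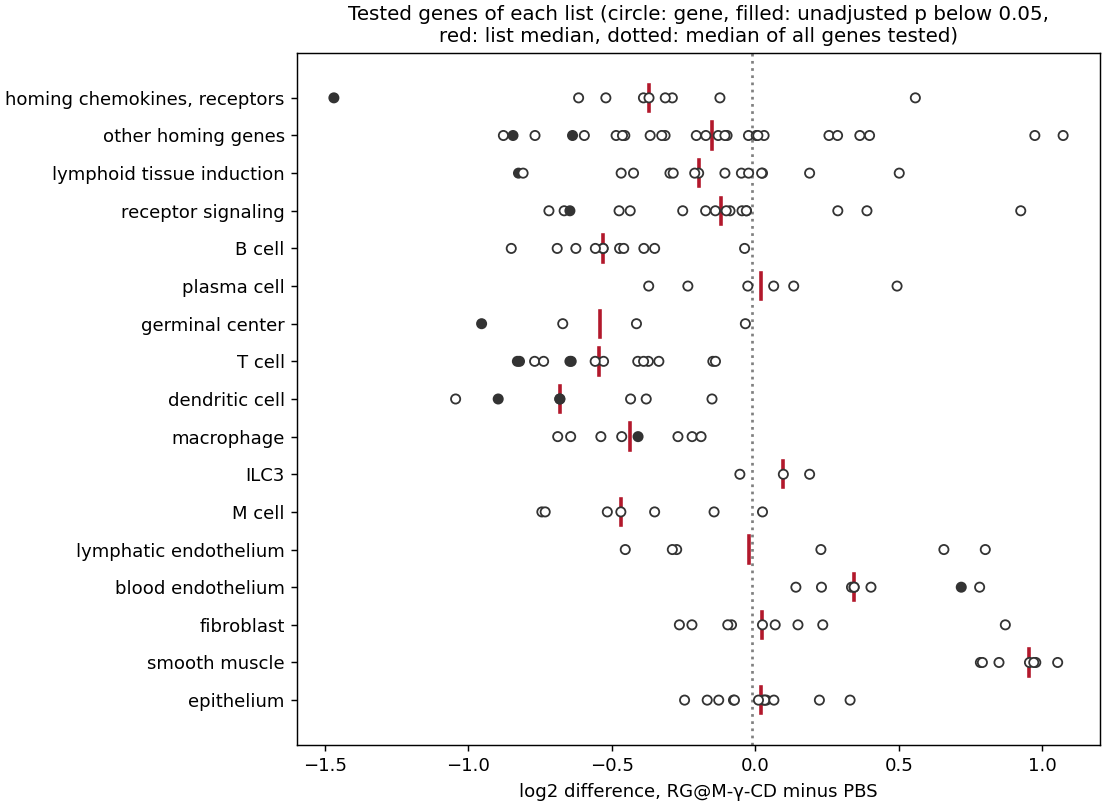
Log2 difference (horizontal axis, RG@M-γ-CD minus PBS) of each tested gene of the homing genes and of 16 further lists, 1 row per list, filled where the unadjusted limma p was below 0.05, with the list median in red and the median of all genes as a dotted line. The homing genes have a median of −0.37 with Ccr7 as the leftmost gene at −1.47, all T cell and B cell markers lie left of 0, and all smooth muscle markers lie right of it. The pancreatic list is not drawn.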

How the data were processed

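Per the files deposited by the authors, total RNA of colon tissue with tumors was labelled with Cy3 and hybridized to 6 one-color Agilent arrays. The intensity values deposited by the authors are the output of Agilent Feature Extraction 10.7.1.1, corrected for background within each array and not normalized between arrays. The authors also deposited log2 values per probe, whose 6 columns share a median of 4.83. These values were taken as quantile normalized, though a shared median alone does not identify the method. Genome build and normalization method are not given in the sources used here.

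All steps ran in R 4.3.3. Control spots (3671 of 62976) and 790 outlier gene spots were left out, log2 values were averaged over the spots of a probe, and each array's 75th percentile was taken off. RefSeq accessions gave the symbol of 32994 gene probes (58.3%). A probe counted as well above background where at least 0.5 of its spots did, and those that did so throughout a group of 3 arrays were tested. The brightest such probe stood for its gene, and all probes of the homing genes were fitted as well. limma 3.58.1 (lmFit and eBayes) was run on all genes with Benjamini-Hochberg adjustment, and was tested on simulated data. Intervals are 95% intervals of this fit. The number of arrays, 3 per group, limits the precision.

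Samples were grouped by their labels. The homing genes and the gene lists were chosen with earlier results of these data known, so no list was tested as a set. The text names all 9 homing genes, the genes of the homing, induction and signaling lists at an unadjusted p below 0.05 with the largest rises and falls, and, of the marker lists, genes at that threshold and first-listed markers. Some further markers that shaped a summed or median level are named as well. Alternatives were quantile normalization, normexp with an offset of 50, the authors' table, a filter on no arrays or on all 6, probe means in place of the brightest probe, outliers left in, the methods' t-test, blocks for replicate number and slide row, each array left out and, chosen after seeing the data, a floor for homing genes not well above background, also with each array left out. The other treatment groups of the study were not analysed here, and some genes that this rule names are not reported here.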

Additional observations from a re-analysis of the deposited data

How the results depend on the processing

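Over 18 alternatives Ccr7 was lower in RG@M-γ-CD under each. Leaving out an array could not turn this sign, since the Ccr7 levels of the groups do not overlap. No homing gene passed an adjusted p of 0.05 in any of the 18. The count of all genes past that threshold was 0 except without RG@M-γ-CD replicate 1, where it was 206 (39 lower), so leaving out each array in turn gave 0 to 206. The number of homing genes at an unadjusted p below 0.05 was 1, beside 419 of all 19087 genes. The fits with the slide row as a covariate and in slide row 1 only set the treated arrays against PBS replicate 1 alone. Their counts are therefore not given. With single arrays left out, the number of homing genes ran from 1 to 4. Removal of PBS replicate 3 gave 4, beside 329 of 19161 genes. Removal of RG@M-γ-CD replicate 1 gave 2, beside 2428 of 19463 genes. Over the settings, the median log2 difference of the homing genes, −0.37, became −1.42 with the slide row as a covariate and in slide row 1 only, and ran from −0.80 (without PBS replicate 3) to 0.27 (without PBS replicate 1). Without PBS replicate 1, Cxcl12, Cxcl13, Ccl21a and Cxcr5 were positive as well as Ccl19, which was not well above background on PBS replicate 3. With the floor for Ccl19 the median there was −0.05. With single arrays left out, the log2 difference of Cxcl13 ran from −0.69 (no PBS replicate 3) to 0.53 (no PBS replicate 1), that of Ccl19 from −2.24 to 0.80 over the same arrays (−2.24 to −0.29 with the floor), that of Cxcr5 from −1.57 to 0.31 over the same arrays and that of Ccl21a from −0.91 (no RG@M-γ-CD replicate 2) to 0.54 (no RG@M-γ-CD replicate 1). Cxcl13 was also positive (0.03) after removal of RG@M-γ-CD replicate 1, Ccl19 (0.27, but −0.81 with the floor) after that of PBS replicate 2 and Ccl21a (0.27) after that of PBS replicate 1. The causes of these changes were not tested. The deviations of arrays with the same replicate number, each from its group mean, correlated at −0.25, −0.23 and 0.14. With 3 arrays per group these values can neither show nor exclude a pairing of the mice by number. The replicate number as a block is a balanced design in which the log2 differences (−1.47 for Ccr7) cannot change. In that fit 0 genes passed the adjusted threshold and Ccr7 was the 1 homing gene at an unadjusted p below 0.05 in limma. With a filter on all 6 arrays Ccl19 was not tested. Signal over background limits Ccl19, which was measured on 5 arrays, and the second Cxcr4 probe.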
